A study of Mus musculus with 4 samples.

Results

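Cycling cells were chosen by their UMI counts of a pair of genes. They are the cells with at least 1 UMI (unique molecular identifier, 1 captured transcript molecule) of Mki67, which encodes the proliferation antigen Ki-67, and at least 1 UMI of Top2a, the DNA topoisomerase that untangles chromosomes before they separate. Of 10608 cells kept, 766 met this rule, 7596 lacked both genes and 2246 had only 1 of them. The cells came from 4 droplet libraries (10x Genomics 3′ version 2 chemistry) of long-term haematopoietic stem cells (LT-HSCs), sorted by flow cytometry from limb and sternum marrow of 8 to 11 week old C57BL/6 mice. Each genotype was 1 library: NPMc+ (cytoplasmic mutant nucleophosmin), Flt3-ITD (internal tandem duplication of the Flt3 receptor), NPMc+/Flt3-ITD with both alleles (the double mutant), and the Mx reference control, labelled MxCRE. The labels give MxCRE for the control and do not say which mutants carry it, nor how many animals were pooled. The NPMc+, Flt3-ITD, NPMc+/Flt3-ITD and Mx libraries gave 219 cycling cells of 2375, 206 of 2393, 199 of 3321 and 142 of 2519. Genotype and library cannot be told apart, cells of 1 library are not replicates, and so no value below carries a test. All intervals are exact 95% intervals that cover counting error only.

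In textbook terms, a dividing cell passes from G1 through S phase, when E2F factors switch on the genes of DNA replication and histones are made, into G2 and mitosis, when B-MYB and FOXM1, bound to the MuvB complex, switch on cyclin B, kinesins and the spindle checkpoint. In resting cells the related DREAM complex represses both sets of genes. Most LT-HSCs in adult marrow rest outside this cycle in G0, and the CDK inhibitor p57 (Cdkn1c) is among the proteins that hold them there. Myeloid, erythroid and megakaryocytic progenitors divide far more often. Mki67 lies at chr7:135689784-135716361 and Top2a at chr11:98992943-99024189, both on the minus strand of mm10 (GENCODE M21).

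The promoters of genes of both phases are shown first, since these genes were high together in the cycling cells of every library. Each is the 150 bases before the start annotated by RefSeq (mm10), 5′ to 3′ in the direction of the gene, with motif matches in capitals. The CHR element (TTTGAA), the CCAAT box (CCAAT) and an E2F site (TTCCCGC) were searched on both strands, so that ATTGG is a CCAAT box on the opposite strand. Hmmr, a spindle protein at chr11:40733438-40733587 on the minus strand, and Nusap1, a spindle and nucleolar protein at chr2:119618148-119618297 on the plus strand, are the G2/M genes with the highest smallest ratio over the libraries. Rrm2, a subunit of ribonucleotide reductase, at chr12:24708104-24708253 on the plus strand, represents the G1/S genes.
Hmmr: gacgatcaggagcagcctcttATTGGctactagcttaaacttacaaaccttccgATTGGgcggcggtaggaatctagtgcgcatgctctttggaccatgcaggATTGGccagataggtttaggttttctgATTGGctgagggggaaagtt
Nusap1: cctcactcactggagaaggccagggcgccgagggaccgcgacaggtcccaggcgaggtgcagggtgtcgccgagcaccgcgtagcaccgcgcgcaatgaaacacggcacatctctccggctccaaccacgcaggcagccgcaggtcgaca
Rrm2: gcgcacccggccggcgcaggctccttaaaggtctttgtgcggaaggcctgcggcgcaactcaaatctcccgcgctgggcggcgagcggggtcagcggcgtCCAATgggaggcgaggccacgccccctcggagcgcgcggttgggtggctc
The Hmmr window held 4 CCAAT boxes, 129, 96, 47 and 20 bases before the start, the Rrm2 window held 1 at 50 bases, and the Nusap1 window held no match to any of the searched motifs. The Tk1 window held none either, and is not shown because much of it lies inside the GENCODE model of that gene. The end of the Rrm2 window also reaches into its GENCODE model, which starts at chr12:24708241. Over the G2/M list, 30.2% of 86 promoters held a CHR element and 61.6% a CCAAT box, against 9.24% and 25.3% of all 27025 promoters of the table and 5.65% and 30.9% of the 2335 promoters of genes expressed in all 4 libraries (at the floor set out below). The E2F site was in 2.33% of the G2/M promoters. Over the G1/S list, 17.3% of 52 promoters held the E2F site and 55.8% a CCAAT box, against 2.63% and 25.3% of all promoters and 5.65% and 30.9% of those expressed, and 9.62% held a CHR element. A match is a description of these letters and not evidence of a bound site.

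The chosen cells carried other cycling markers as a group, although these were not seen in every cell. Of 14 such markers fixed for this check, none was used in the rule. After each cell was thinned at random to 5000 UMIs, which left 215 NPMc+, 202 Flt3-ITD, 187 NPMc+/Flt3-ITD and 135 Mx cycling cells, the median cycling cell had UMIs of 7, 6, 6 and 6 of them, and the median cell lacking both genes had 1 in each library. At least 4 markers were seen in 78.6%, 82.7%, 81.8% and 80.7% of cycling cells in that order, against 1.25%, 1.71%, 2.83% and 1.05% of cells lacking both. None of the 14 was seen in 10, 6, 2 and 2 thinned cycling cells. Thinning can hide a marker, since Mki67 itself was then seen in 51.6%, 59.4%, 59.9% and 63.7% of cycling cells. Whether those cells had other signs of division on all UMIs was not tested.

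The LT-HSC label of the sort held less well for the cycling cells than for the rest. At least 3 of 10 LT-HSC markers were seen in 21.9% of NPMc+, 20.3% of Flt3-ITD, 9.09% of NPMc+/Flt3-ITD and 32.6% of Mx cycling cells, against 54.7%, 39.6%, 19.6% and 71.9% of the cells lacking both genes in the same libraries. The cycling cells are therefore called by their rule and not as cycling LT-HSCs.

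The rule sat on few molecules. The medians were 2, 2, 1 and 2 UMIs of Mki67 and 5, 5, 4 and 5 UMIs of Top2a per NPMc+, Flt3-ITD, NPMc+/Flt3-ITD and Mx cycling cell, and 30, 23, 42 and 18 cells entered with exactly 1 UMI of each. Just inside the threshold, thinned cells with 1 UMI of each gene had medians of 31, 53, 53 and 35 UMIs of the G2/M list. Just outside it, cells with only Top2a had 24, 27, 30 and 23, cells with only Mki67 had 26, 25, 32 and 21.5, and cells with neither had 21, 21, 25 and 19. Cells with 2 or more UMIs of each had 136, 129, 160 and 123.

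Free RNA could place a UMI of either gene in a resting cell. The barcodes with under 1000 UMIs, nearly all of those left out, held 7, 5, 2 and 6 UMIs of Mki67 in NPMc+, Flt3-ITD, NPMc+/Flt3-ITD and Mx, which is 239.9, 55.7, 20.3 and 129 CPM (UMIs per 1000000 UMIs), and 5, 11, 11 and 6 of Top2a, which is 171, 123, 111 and 129 CPM. Both genes thus occurred outside the kept cells, at levels mostly above those of the kept cells but resting on 2 to 11 UMIs. In NPMc+, 2 left-out barcodes held both genes. Whether these UMIs were free RNA was not tested. Among cells with at least 3 of 7 markers of late neutrophil development, 2 of 14 met the rule (14.3%, interval 1.78 to 42.8%, median 9835 UMIs). Whether these cells could still divide was not tested. Among cells with at least 2 CD3 genes, 0 of 18 met the rule, which allows a share of up to 18.5% at a median of 3524 UMIs. No cycling cell shared its barcode with a cycling cell of another library, 8 had a kept partner elsewhere, and doublets were not removed.

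Cycling cells held more RNA than cells lacking both genes. Their median was 20303 UMIs against 8443 in NPMc+, 15344.5 against 8094 in Flt3-ITD, 14465 against 6678 in NPMc+/Flt3-ITD and 16041.5 against 7665.5 in Mx, ratios of 2.40, 1.90, 2.17 and 2.09. Part of this gap is fixed by the rule, because a deeper cell is more likely to show a UMI of both genes. At 5000 UMIs each, cycling cells and cells lacking both showed similar numbers of genes, with medians of 2129 against 2126 in NPMc+, 2103.5 against 2089 in Flt3-ITD, 2282 against 2294 in the double mutant, and 2189 against 2169 in Mx. In all, cycling cells carried 17.4%, 15.1%, 10.5% and 10.4% of the UMIs of the NPMc+, Flt3-ITD, NPMc+/Flt3-ITD and Mx libraries.

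The share of cycling cells differed between libraries on all UMIs, and its intervals overlapped once depth was made equal. Counted on all UMIs it was 9.22% in NPMc+ (interval 8.09 to 10.5%), 8.61% in Flt3-ITD (7.51 to 9.80%), 5.99% in NPMc+/Flt3-ITD (5.21 to 6.85%) and 5.64% in Mx (4.77 to 6.61%), so the single mutants lay above the double mutant and the control. The median kept cell of these libraries had 9466, 8661, 7323 and 8094 UMIs. On thinned cells the shares were 4.27% in NPMc+ (3.43 to 5.25%, 85 of 1990 cells), 4.57% in Flt3-ITD (3.70 to 5.57%, 92 of 2014), 3.65% in NPMc+/Flt3-ITD (2.95 to 4.47%, 90 of 2464) and 3.66% in Mx (2.87 to 4.58%, 72 of 1969). All 4 thinned intervals overlap. They rest on fewer cycling cells, and thinning left out 385, 379, 857 and 550 cells with under 5000 UMIs. Whether depth made the gap seen on all UMIs was not tested. If the presence of Mki67 and of Top2a were unrelated, the product of their single shares would give 1.46%, 1.49%, 1.22% and 0.972%.

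**Figure D1:**
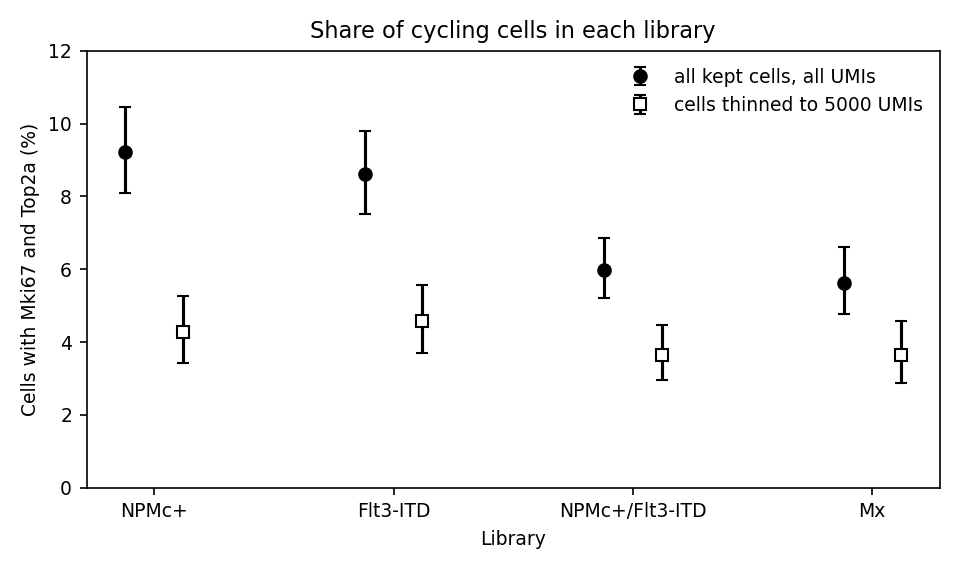
Share of kept cells with at least 1 UMI of both Mki67 and Top2a (percent, vertical axis) in the 4 libraries, on all UMIs (filled circles) and after thinning to 5000 UMIs (open squares), with exact 95% intervals for counting error. On all UMIs NPMc+ and Flt3-ITD stand at 9.22% and 8.61% against 5.64% in Mx, and after thinning every library lies between 3.65% and 4.57%.

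Levels over whole libraries were also taken, for the rule's own genes, which are no separate check, and for both cell cycle lists. Mki67 stood at 31.6 CPM in NPMc+, 32.0 in Flt3-ITD, 23.7 in NPMc+/Flt3-ITD and 28.4 in Mx, summed over all kept cells, and Top2a at 77.9, 81.4, 78.8 and 77.5 CPM. Summed over all kept cells the G2/M list reached 8093, 8188 and 8428 CPM in the mutants and 6363 CPM in Mx, and the G1/S list 3641, 4318, 4705 and 3647 CPM. The G2/M list was thus higher in every mutant library than in Mx while Top2a differed little.

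From here on, UMIs were summed over thinned cells and given as CPM, and a gene was counted where it had at least 50 CPM in either set of cells compared and differed at least 2-fold. The comparison of cycling cells with cells lacking both genes describes what the rule selected, and nothing is read from its counts. In NPMc+, 199 of 3532 genes were at least 2-fold higher in cycling cells (5.63%) and 92 were lower (2.6%). In Flt3-ITD 216 of 3482 were higher (6.2%) and 59 lower (1.69%), in NPMc+/Flt3-ITD 214 of 3924 (5.45%) and 37 (0.943%), and in Mx 267 of 3638 (7.34%) and 108 (2.97%). Of 2951 genes at the floor in every library, 132 were higher in all 4 (4.47%) and 4 were lower in all 4 (0.136%). Genes under the floor are not in these counts. The 4.47% and 0.136% are the shares against which list counts over all 4 libraries stand below.

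Genes of G1/S, the first to act in the cycle, were higher in cycling cells by smaller ratios than those of G2/M. The list had 69 genes, of which 42 were at the floor in all 4 libraries and 33 were at least 2-fold higher in all 4. Its median log2 ratio was 1.49 in NPMc+, 1.68 in Flt3-ITD, 1.57 in NPMc+/Flt3-ITD and 1.91 in Mx, against 0.05, 0.02, -0.01 and 0.06 over all genes at the floor. Pcna, the sliding clamp of DNA polymerase, had 235 CPM in cycling NPMc+ cells against 85.2 in those lacking both, 361 against 118 in Flt3-ITD, 289 against 102 in NPMc+/Flt3-ITD and 458 against 105 in Mx. Every library thus had Pcna transcripts in the cells lacking both genes too. Mcm5, a subunit of the replicative helicase, was 165 against 48.2 CPM in NPMc+, 206 against 66.7 in Flt3-ITD, 264 against 73.3 in NPMc+/Flt3-ITD and 213 against 49.7 in Mx. Thymidine kinase Tk1 was much more restricted, at 158 against 9.05, 194 against 9.23, 200 against 7.35 and 231 against 5.05 CPM in the same order, which is 17.5-fold (interval 12.9 to 23.97) in NPMc+ and 45.7-fold (31.7 to 67.7) in Mx. Rrm2, whose promoter is printed above, was 127 against 7.96, 217 against 12.96, 279 against 12.3 and 215 against 5.75 CPM. Both of these nucleotide synthesis genes had a larger ratio in Mx than in each mutant, and their levels in cells lacking both were lowest in Mx.

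G2/M genes showed the largest ratios. The list had 111 genes, 108 of which were matched, and 59 of the 62 at the floor in all libraries were at least 2-fold higher in all 4. Its median log2 ratio was 3.47 in NPMc+, 3.45 in Flt3-ITD, 3.44 in NPMc+/Flt3-ITD and 3.70 in Mx. By its smallest ratio over the libraries Hmmr led, though Ube2c in NPMc+ and Ccna2 in Mx had larger ones. It had 64.2 CPM in cycling cells against 1.87 in cells lacking both in NPMc+, 62.4 against 0.894 in Flt3-ITD, 77.0 against 1.21 in NPMc+/Flt3-ITD and 88.9 against 0.702 in Mx, which is 34.3-fold (18.4 to 69.6), 69.8-fold (30.3 to 197), 63.9-fold (32.8 to 139) and 127-fold (51.4 to 404). The cells lacking both were close to empty of it in every library. Ube2c, the ubiquitin-conjugating enzyme of the anaphase-promoting complex, had 353 against 9.98 CPM in NPMc+, 216 against 5.81 in Flt3-ITD, 271 against 9.64 in NPMc+/Flt3-ITD and 144 against 3.37 in Mx. Cyclin A2 (Ccna2) was 154 against 5.15, 139.6 against 2.23, 133 against 3.86 and 135 against 0.982 CPM, and cyclin B1 (Ccnb1) was 132 against 7.49, 77.2 against 3.87, 136 against 6.51 and 65.2 against 3.65 CPM. Survivin (Birc5), part of the chromosomal passenger complex, was 302 against 14.4, 304 against 9.68, 340.1 against 13.02 and 252 against 2.67 CPM. Of the spindle checkpoint and kinetochore genes, 12 of 17 at the floor were higher in all 4 libraries, and of the homologous recombination and Fanconi genes, which repair replication damage, 5 of 6.

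Pclaf and the replication-dependent histones are made for DNA synthesis. Pclaf, a PCNA-binding factor, had 291 CPM in cycling NPMc+ cells against 8.58 in those lacking both, 419.8 against 8.04 in Flt3-ITD, 466 against 13.5 in NPMc+/Flt3-ITD and 349.6 against 4.07 in Mx. Of the replication-dependent histone genes 7 were at the floor in all libraries and 3 of them were higher in all 4, with medians of 0.82, 1.04, 1.04 and 2.05. Hist1h2ap was 2801 against 284 CPM in NPMc+, 5085 against 779 in Flt3-ITD, 600 against 108 in NPMc+/Flt3-ITD and 2658 against 279.9 in Mx, so the double mutant had the lowest level in both kinds of cell. Histone transcripts mostly lack a poly(A) tail, which this chemistry needs, and close histone copies can share reads, so these levels are uncertain.

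**Figure D2:**
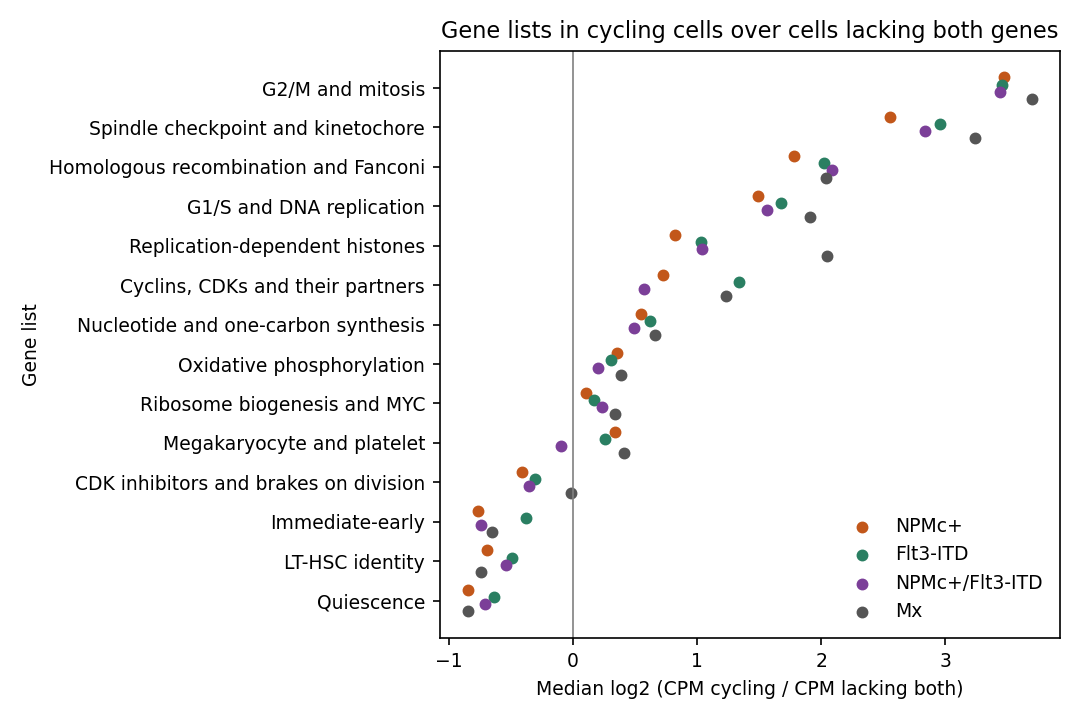
Median log2 ratio of 14 gene lists, cycling cells over cells lacking Mki67 and Top2a (horizontal axis), for genes with at least 50 CPM in either, 1 coloured point per library. The G2/M list lies between 3.44 and 3.70 and the G1/S list between 1.49 and 1.91, while the quiescence list lies between -0.85 and -0.63.

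The cyclins and kinases of G1 did not share one pattern. Of 15 cyclin, CDK and partner genes at the floor in all libraries, 6 were higher in all 4, against 4.47% of all genes. Cdk1, the mitotic kinase, was 227 against 14.5 CPM in NPMc+, 193 against 15.5 in Flt3-ITD, 201 against 20.9 in NPMc+/Flt3-ITD and 170.4 against 12.5 in Mx. Cdk6, the G1 kinase that sets how quickly stem cells leave rest, was 455 CPM in cycling cells against 422 in NPMc+, 406 against 335 in Flt3-ITD, 513 against 739 in NPMc+/Flt3-ITD and 458 against 232 in Mx. The cycling cells of the 4 libraries thus had Cdk6 at like levels, and the cells lacking both genes did not. Cyclin D2 (Ccnd2) was lower in cycling cells, with log2 ratios of -0.77, -1.07, -0.62 and -1.05, and cyclin D3 (Ccnd3) was higher at 0.46, 0.52, 0.13 and 0.56, neither reaching 2-fold in all libraries.

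Brakes on division are given by gene. Of 6 CDK inhibitors and other brakes at the floor in all libraries, 0 were 2-fold lower in all 4, against 0.136% of all genes, a count too small to read. Cdkn1c was 13.95 CPM in cycling cells against 47.0 in NPMc+, 12.9 against 31.4 in Flt3-ITD, 8.56 against 17.7 in NPMc+/Flt3-ITD and 22.2 against 59.8 in Mx, and reached the floor in Mx only (log2 ratio -1.43). Cdkn1a, which encodes p21, was 34.4 against 52.0, 191 against 190.0, 154 against 126 and 25.2 against 20.9 CPM in the same order. It was 1.51-fold lower in cycling cells of NPMc+ (1.07 to 2.18) and 1.22-fold higher in those of the double mutant (1.02 to 1.45). Cdkn2c, which encodes p18, had log2 ratios of 0.15, 1.64, 0.33 and 1.67.

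Quiescence and stem cell genes were lower in cycling cells on the whole, with the smallest gap in the double mutant for several. The quiescence list had median log2 ratios of -0.85, -0.63, -0.71 and -0.85. Of its 13 genes at the floor in every library, 0 were 2-fold lower in all 4 and 8 in at least 1. Of all 2951 genes at the floor in every library, 4 were 2-fold lower in all 4 and 100 in at least 1. The antiproliferative gene Btg1 was lower by log2 ratios of -1.05 in NPMc+, -0.96 in Flt3-ITD, -1.15 in NPMc+/Flt3-ITD and -1.12 in Mx. The named genes that were 2-fold lower in all libraries were Tcp11l2, Pik3ip1, a brake on PI3 kinase, and Ypel3. Tcp11l2 was 24.2 CPM in cycling cells against 90.5 in NPMc+, 15.8 against 79.8 in Flt3-ITD, 27.8 against 105 in NPMc+/Flt3-ITD and 14.8 against 76.8 in Mx. Pik3ip1 had log2 ratios of -1.46, -1.41, -1.14 and -1.73, and Ypel3 of -1.40, -1.04, -1.04 and -1.34. The fourth gene of that count has only a clone or prediction name.

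The LT-HSC identity list had median log2 ratios of -0.69 in NPMc+, -0.49 in Flt3-ITD, -0.54 in NPMc+/Flt3-ITD and -0.74 in Mx. Of its genes, 10 of 24, 5 of 20, 0 of 15 and 7 of 22 were at least 2-fold lower in that order. The shares over all genes were 2.6%, 1.69%, 0.943% and 2.97%. Procr, the surface receptor EPCR that marks LT-HSCs, was seen in 11.2% of cycling cells against 37.1% of cells lacking both in NPMc+, 5.94% against 24.1% in Flt3-ITD, 10.7% against 14.6% in NPMc+/Flt3-ITD and 13.3% against 43.2% in Mx. The transcription factor Hlf was seen in 18.6% against 45.1%, 29.2% against 46.6%, 28.9% against 34.2% and 40.0% against 69.4%, and Mecom, which encodes EVI1, in 24.2% against 39.3%, 24.8% against 30.1%, 15.5% against 19.2% and 24.4% against 50.6%. In percentage points the gap for each of these was smallest in the double mutant, where cells lacking both genes were themselves low. Whether the gap differs between libraries was not tested.

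Of the progenitor antigens, Cd34 was seen in a smaller share of cycling cells than of cells lacking both in every library, and Cd48 in a larger share. The intervals of cycling cells and cells lacking both overlapped for Cd48 in every library and for Cd34 in all but NPMc+. Cd34 was seen in 29.3% of cycling NPMc+ cells against 42.7% of those lacking both, 64.9% against 73.0% in Flt3-ITD, 77.0% against 81.1% in NPMc+/Flt3-ITD and 50.4% against 60.5% in Mx. Cd48, absent from LT-HSCs by the usual surface definition, was seen in 43.7% against 35.4%, 51.0% against 46.9%, 88.2% against 86.7% and 14.8% against 9.05%. Both genes varied far more between libraries than between cycling and other cells of a library. Ly6a, which encodes Sca-1, was seen in 36.7% against 65.0%, 17.3% against 34.8%, 31.0% against 44.5% and 26.7% against 51.2%.

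**Figure D3:**
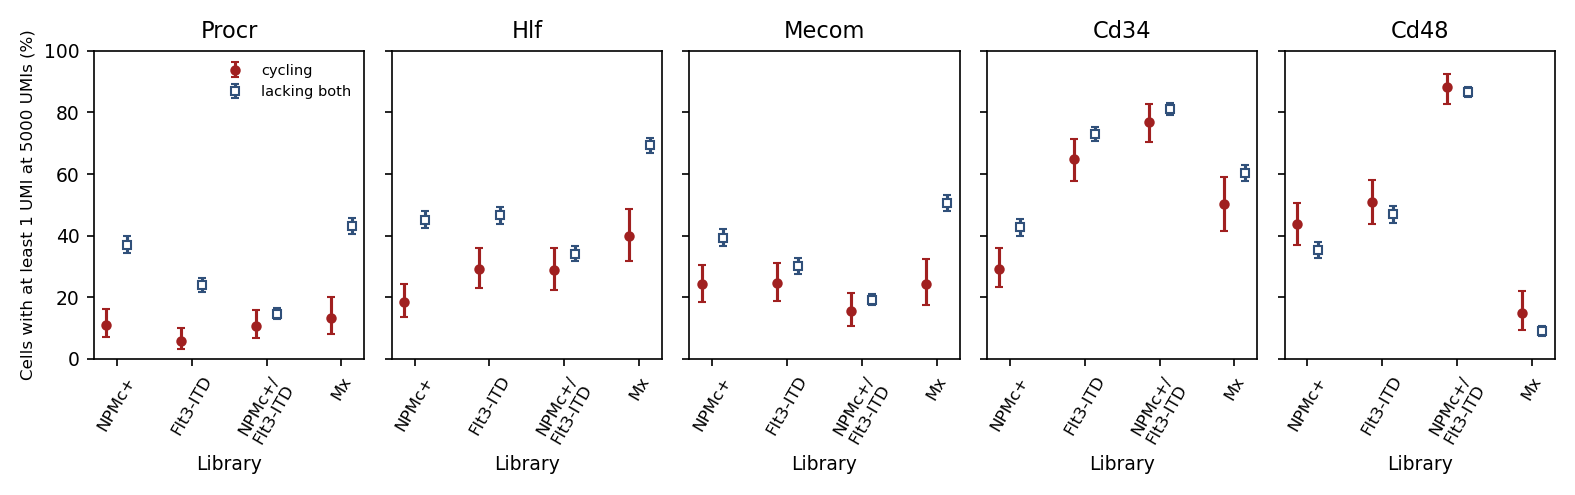
Percent of cells, thinned to 5000 UMIs, with at least 1 UMI of Procr, Hlf, Mecom, Cd34 and Cd48 in cycling cells and in cells lacking Mki67 and Top2a, by library, with exact 95% intervals for counting error. In Mx, Procr was seen in 13.3% of cycling cells against 43.2% of the others, and in NPMc+/Flt3-ITD in 10.7% against 14.6%.

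Cd74 and Ltb were also lower in cycling cells, and least so in the double mutant. Cd74, the MHC class II invariant chain, was 91.2 CPM in cycling cells against 416 in NPMc+, 12.9 against 88.8 in Flt3-ITD, 178 against 213 in NPMc+/Flt3-ITD and 68.1 against 489.7 in Mx, which is 4.56-fold (3.73 to 5.64), 6.90-fold (4.00 to 13.03), 1.20-fold (1.02 to 1.42) and 7.19-fold (5.38 to 9.83) lower. Ltb, a lymphotoxin, had log2 ratios of -2.08, -1.99, -0.98 and -2.48. The immediate-early genes, switched on within minutes of a signal or of tissue handling, had medians of -0.76, -0.38, -0.74 and -0.65. Of 20 at the floor in every library, 0 were 2-fold lower in all 4 and 8 in at least 1. Among all 2951 genes at that floor these counts were 4 and 100.

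Most growth genes differed by less than 2-fold. Of 35 ribosome biogenesis and MYC genes at the floor in all libraries 0 were 2-fold higher in all 4, with medians of 0.11, 0.17, 0.24 and 0.34, and of 53 oxidative phosphorylation genes 0 were, with medians of 0.35, 0.31, 0.20 and 0.39. Nucleotide and one-carbon synthesis genes were an exception, with 7 of 26 higher in all 4 against 4.47% of all genes. Myc itself was lower in cycling cells, with log2 ratios of -0.69, -0.50, -0.53 and -0.57, as was Mycn at -1.07, -1.72, -0.69 and -0.85. Npm1, the nucleolar chaperone whose mutant form defines NPMc+, was 1896 CPM in cycling cells against 1719.7 in NPMc+, 1844 against 1622 in Flt3-ITD, 2394 against 2041 in NPMc+/Flt3-ITD and 1859 against 1538 in Mx. Flt3 was 1.86 against 16.7, 19.8 against 36.2, 61.0 against 67.5 and 16.3 against 34.1 CPM. These 3′ counts do not separate mutant from normal alleles of either gene, so they do not check the genotypes.

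Within the cycling cells, the balance of late and early cycle genes leaned most to G2/M in NPMc+. The median thinned NPMc+, Flt3-ITD, NPMc+/Flt3-ITD and Mx cycling cell had 112, 108.5, 107 and 104 UMIs of the G2/M list and 31, 47, 49 and 47 of the G1/S list. A G2/M share above 66.7% of the UMIs of both lists was seen in 140 of 215 NPMc+ cells (65.1%, 58.3 to 71.5%), 120 of 202 Flt3-ITD cells (59.4%, 52.3 to 66.2%), 97 of 187 NPMc+/Flt3-ITD cells (51.9%, 44.5 to 59.2%) and 67 of 135 Mx cells (49.6%, 40.9 to 58.4%). The NPMc+ and Mx intervals overlap at their ends. Cells lacking both genes, in which these lists are near background, exceeded the same line in 53.04%, 42.9%, 39.8% and 42.4%, so NPMc+ also stood highest among cells that were not chosen as cycling. A range of a score is not a phase, and 42, 50, 32 and 26 cycling cells lay within 5 percentage points of the line.

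The 2 sides of that line differed in the genes that built it, which is a description. Ube2c was 516 CPM in NPMc+ cells above 66.7% and 48.0 in the rest, 347 and 24.4 in Flt3-ITD, 489 and 35.6 in the double mutant, and 275 and 14.7 in Mx. Pcna was 164 and 368, 272 and 493, 161 and 427, and 263 and 650.0 CPM. Hist1h2ap, a histone gene in neither list, was higher above the line, at 3443 and 1603, 6355 and 3227, 742 and 447, and 3719 and 1612 CPM.

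**Figure D4:**
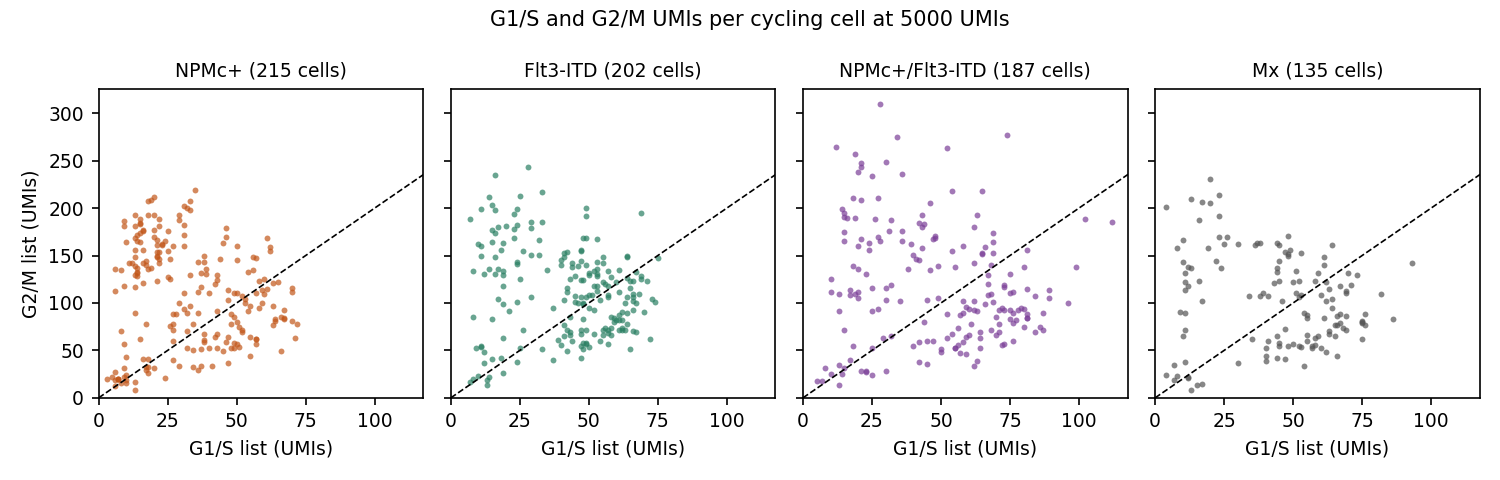
Each point is 1 cycling cell thinned to 5000 UMIs, with its UMIs of the G1/S list (horizontal axis) and of the G2/M list (vertical axis), in 4 panels of 215 NPMc+, 202 Flt3-ITD, 187 NPMc+/Flt3-ITD and 135 Mx cells. The dashed line marks a G2/M share of 66.7%, above which lay 140, 120, 97 and 67 cells.

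Cycling cells carried erythroid markers more often than cells lacking both in every library, and megakaryocyte markers more often outside the double mutant. No difference between libraries was tested. Markers of committed erythroid cells, at least 3 in a cell, were seen in 9.77% of NPMc+ (interval 6.15 to 14.5%), 3.47% of Flt3-ITD (1.40 to 7.01%), 3.21% of NPMc+/Flt3-ITD (1.19 to 6.85%) and 5.93% of Mx cycling cells (2.59 to 11.3%), against 2.03%, 0.596%, 0.482% and 0.491% of cells lacking both. The summed level of these 10 genes was 353, 237, 237 and 375 CPM in cycling cells against 169, 72.5, 80.7 and 67.5, and Cldn13 and Rhd had 0 UMIs in Flt3-ITD cycling cells. Klf1, the master factor of red cell genes, was seen in 14.4%, 7.92%, 4.28% and 16.3% of cycling cells against 7.18%, 2.46%, 1.63% and 1.54%, and Gata1 in 31.2%, 21.8%, 8.56% and 20% against 17.1%, 10.6%, 7.78% and 5.19%. Klf1 and Gata1 thus had higher shares among the cycling cells of every library, with the smallest gap for Gata1 in the double mutant. For Klf1 the intervals of cycling cells and cells lacking both overlapped in the double mutant only, at 1.86 to 8.26% against 1.08 to 2.36%.

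Markers of megakaryocytes, the platelet-forming cells, were seen in 51.2% of NPMc+ cycling cells (44.3 to 58.0%), 15.3% in Flt3-ITD (10.7 to 21.1%), 8.56% in NPMc+/Flt3-ITD (4.97 to 13.5%) and 22.2% in Mx (15.5 to 30.2%), against 23.8%, 5.88%, 7.41% and 5.75% of cells lacking both. Their 12 genes summed to 1716, 409, 243 and 573 CPM against 627, 200.4, 217 and 220, with Gp6 at 0 in the cycling cells of every library. Pf4, platelet factor 4, was 1140 CPM in cycling cells against 327 in NPMc+, 200 against 62.8 in Flt3-ITD, 53.5 against 37.9 in NPMc+/Flt3-ITD and 259 against 73.5 in Mx. The ratio was 3.49-fold (3.25 to 3.74), 3.18-fold (2.68 to 3.77), 1.41-fold (1.03 to 1.91) and 3.53-fold (2.95 to 4.19), so the ratio was smallest in the double mutant. LT-HSCs also express some megakaryocyte genes.

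Markers of T or NK cells were far more frequent in the double mutant, among cycling cells and among cells lacking both. At least 3 were seen in 11.2% of NPMc+, 8.42% of Flt3-ITD, 56.1% of NPMc+/Flt3-ITD (48.7 to 63.4%) and 2.96% of Mx cycling cells, against 7.88%, 8.04%, 55.1% and 3.30% of cells lacking both. The 16 genes summed to 687, 515, 1517 and 388 CPM against 531, 416, 1726 and 258. Of these genes Nkg7, a cytotoxic granule protein, was seen in 82.8%, 70.3%, 86.6% and 57.8% of cycling cells against 62.8%, 55.3%, 85.1% and 29.8%, with the smallest gap in the double mutant. In the double mutant Cd3d, Cd3e and Cd3g, the defining genes of mature T cells, and Ncr1, of NK cells, had 0 UMIs in cycling cells. The recombination enzyme gene Dntt was seen in 0.465%, 4.46%, 41.2% and 1.48% of NPMc+, Flt3-ITD, NPMc+/Flt3-ITD and Mx cycling cells, against 0.546%, 5.73%, 39.5% and 0.281%, and Tcf7, a T lineage factor, in 0.465%, 0.495%, 20.9% and 1.48% against 0.390%, 0.298%, 21.2% and 0.211%.

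Markers of neutrophils and their precursors were seen in 7.44%, 9.41%, 13.4% and 0.741% of cycling cells against 6.40%, 8.64%, 9.52% and 2.60%, with a summed level of 656, 626, 603 and 298 CPM against 771, 655, 545 and 996. Fcnb and Retnlg, both of this marker list, were at 0 in the cycling cells of every library. Mast cell or basophil markers were seen in 3.74% of NPMc+/Flt3-ITD cycling cells against 5.30% of its cells lacking both, and in 0 cycling cells of the other libraries, which allows up to 1.40% in NPMc+, 1.49% in Flt3-ITD and 2.22% in Mx, against 0.390% of cells lacking both in NPMc+ and 0 cells in Flt3-ITD and Mx. They summed to 108, 69.3, 447 and 37.0 CPM against 98.8, 49.3, 771 and 13.3. Markers of B cells, monocytes, endothelium and stroma were seen in at most 0.495% of cycling cells in any library. The part of lineage markers in the differences between libraries described next was not tested beyond leaving such cells out, which left only 56 NPMc+, 66 Flt3-ITD, 14 NPMc+/Flt3-ITD and 72 Mx cycling cells.

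Sex mixed differently between libraries too. Of cycling cells with a sex call from Y-linked genes or Xist, 79.9% of NPMc+, 60.1% of Flt3-ITD, 91.9% of NPMc+/Flt3-ITD and 68.7% of Mx were male, against 69.7%, 54.0%, 93.2% and 68.7% of cells lacking both. UMIs of both kinds, as a doublet of a male and a female cell would have, were in 5.58%, 6.44%, 1.07% and 4.44% of thinned cycling cells against 4.21%, 3.95%, 1.45% and 3.72%. On all UMIs they were in 50 of 219 NPMc+, 38 of 206 Flt3-ITD, 5 of 199 NPMc+/Flt3-ITD and 28 of 142 Mx cycling cells. Cells lacking both, which have fewer UMIs, had them in 146 of 1623, 132 of 1670, 42 of 2391 and 132 of 1912. The part of doublets among the cycling cells was not tested. Among male cells the cycling share was 4.10%, 4.75%, 3.99% and 3.32%, and among female cells 3.38%, 3.76%, 4.64% and 3.16%. The part of sex in the differences between libraries was not tested beyond taking male cells alone.

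Between libraries, the cycling cells differed most for the double mutant. At the same floor and fold, NPMc+ over Mx had 65 genes higher (1.81% of 3588) and 101 lower (2.81%), Flt3-ITD over Mx had 93 higher (2.64% of 3525) and 74 lower (2.1%), and NPMc+/Flt3-ITD over Mx had 248 higher (6.34% of 3912) and 246 lower (6.29%). The double mutant over NPMc+ had 246 higher (6.41% of 3839) and 217 lower (5.65%), and over Flt3-ITD 189 higher (4.96% of 3809) and 211 lower (5.54%). These comparisons share libraries and are not independent. The same counts in cells lacking both were 82 and 52 for NPMc+ over Mx, 110 and 50 for Flt3-ITD over Mx, 230 and 222 for NPMc+/Flt3-ITD over Mx, 178 and 187 over NPMc+, and 148 and 189 over Flt3-ITD. The median of all genes at the floor was 0.02, -0.05, 0.22, 0.20 and 0.26 (log2) in these 5 comparisons by CPM, and 0.15, 0.09, 0.14, -0.02 and 0.05 after TMM scaling, so list medians are read against it.

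As lists, cell cycle genes differed little between the cycling cells of the libraries and somewhat more between their other cells. The G2/M list had a median log2 ratio over Mx of 0.08 in NPMc+, 0.05 in Flt3-ITD and 0.23 in double mutant cycling cells, against 0.37, 0.35 and 0.65 in cells lacking both. Over NPMc+ the double mutant stood at 0.17 and over Flt3-ITD at 0.11, and both signs turn under TMM, to -0.02 and -0.09. For the G1/S list the NPMc+ cycling cells stood lower, with a median of -0.47 over Mx by CPM and -0.35 by TMM, against -0.03 in cells lacking both. At least 2-fold lower were 4 of 53 of its genes, against 2.81% of all genes, a count too small to read. Flt3-ITD stood at -0.06 by CPM and 0.07 by TMM and the double mutant at 0.16, against 0.23 and 0.39 in cells lacking both.

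The cell cycle genes furthest apart between NPMc+ and Mx cycling cells include genes of both lists that drew the G2/M line, so they are no separate sign of the share above it. Ube2c had 353 CPM in NPMc+ against 144 in Mx (2.45-fold, 1.96 to 3.10) and Ccnb1 132 against 65.2 (2.03-fold, 1.44 to 2.91), and in cells lacking both their log2 ratios were similar at 1.57 and 1.04. Ccne2, the cyclin that drives entry into S phase, had 20.5 CPM against 54.8 (log2 ratio -1.42), the chromatin remodeller Hells 44.7 against 116 (-1.37) and the fork protector Timeless 23.3 against 56.3 (-1.28), and cells lacking both had -0.34, -1.04 and -0.23. Pcna had 235 CPM against 458, 1.95-fold lower (1.64 to 2.31). Hist1h1b, a linker histone, was 4.25-fold lower (2.99 to 6.12) at 41.9 CPM against 178, and stood at a log2 ratio of -0.50 in cells lacking both.

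The 10 highest genes of NPMc+ over Mx cycling cells included stress, signalling and granule genes, and the 10 lowest included the histone genes Hist1h1b, Hist1h4d and Hist1h1a. Hspa1a, a heat shock chaperone, had 338 CPM in NPMc+ against 32.6 in Mx (10.4-fold, 6.74 to 16.7), the zinc-finger factor Klf2 533 against 68.1 (7.82-fold, 5.79 to 10.8) and the early activation antigen Cd69 112 against 14.8 (7.54-fold, 3.96 to 16.1). The log2 ratios in cells lacking both were of like size for all of these, 4.27, 2.72 and 3.51, against 3.37, 2.97 and 2.91 in cycling cells. Ms4a3, a gene of granulocyte and monocyte progenitors, had 138 CPM against 13.3 (10.3-fold, 5.29 to 23.0). Elane, Ctsg and Mpo, granule enzymes of neutrophil precursors, were also high in NPMc+ but rested on 2, 11 and 8 cells. Pf4 was 4.40-fold higher in NPMc+ (3.75 to 5.18). Lower in NPMc+ were Serpinf1, with 6.51 CPM against 51.9 in Mx, Slfn9, with 12.1 against 94.8, and Zfp608, with 7.44 against 51.9.

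Flt3-ITD cycling cells stood apart from Mx by genes of acute signalling. Of the immediate-early list 31 of 33 genes were at least 2-fold higher than in Mx, against 2.64% of all genes. The median of the list was 2.29, against 1.84 in cells lacking both. Nr4a1, a nuclear receptor of that class, had 509 CPM in Flt3-ITD against 19.3 in Mx (26.4-fold, 15.3 to 49.97), Klf2 had 1740 against 68.1 (25.5-fold, 19.1 to 35.0) and Cd69 223 against 14.8 (15.04-fold, 8.03 to 31.8). The other mutants held the same list at lower ratios, with medians of 1.03 in NPMc+ and 1.22 in NPMc+/Flt3-ITD, and 1.18 and 1.20 in cells lacking both. In NPMc+ 13 of 24 genes were higher, against 1.81% of all genes, and in NPMc+/Flt3-ITD 15 of 25, against 6.34%. Over Flt3-ITD the double mutant had 19 of 33 of the immediate-early genes lower (against 5.54% of all genes), with a median of -1.09. Such genes also answer to tissue handling, and handling and genotype cannot be told apart here.

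Receptor feedback genes were higher in both libraries with Flt3-ITD. STAT5, a factor that FLT3-ITD activates, induces Socs2, a feedback inhibitor of cytokine receptors. Socs2 had 178 CPM in Flt3-ITD cycling cells against 16.3 in Mx (10.9-fold, 5.97 to 22.3) and 476 CPM in those of the double mutant (29.2-fold, 16.2 to 58.9), with 15.8 CPM in NPMc+. It was seen in 52.5% of Flt3-ITD and 82.4% of double mutant cycling cells, against 6.98% in NPMc+ and 8.15% in Mx. Over Mx the STAT5 list had medians of 0.22 in NPMc+, 1.06 in Flt3-ITD (7 of 12 genes higher) and 1.28 in the double mutant (6 of 11), against 0.21, 1.06 and 1.67 in cells lacking both. Of all genes, 2.64% were higher in Flt3-ITD and 6.34% in the double mutant. Cdkn1a was 34.4, 191 and 154 CPM in NPMc+, Flt3-ITD and NPMc+/Flt3-ITD cycling cells against 25.2 in Mx.

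MHC class II genes were low in Flt3-ITD cycling cells. H2-Eb1 had 9.90 CPM against 80.0 in Mx (8.08-fold lower, 4.07 to 17.8), Cd74 12.9 against 68.1 (5.30-fold, 2.81 to 10.7) and H2-Aa 25.7 against 108 (4.20-fold, 2.65 to 6.85). Cells lacking both had log2 ratios of like size, -2.44, -2.46 and -2.16. Mycn was 3.78-fold lower (2.18 to 6.81) in cycling cells, at 18.8 CPM in Flt3-ITD against 71.1 in Mx. The granule genes Mpo, with 134 CPM in 36 cells against 7.41 in Mx, and Ctsg, with 69.3 CPM in 25 cells against 1.48, were higher.

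**Figure D5:**
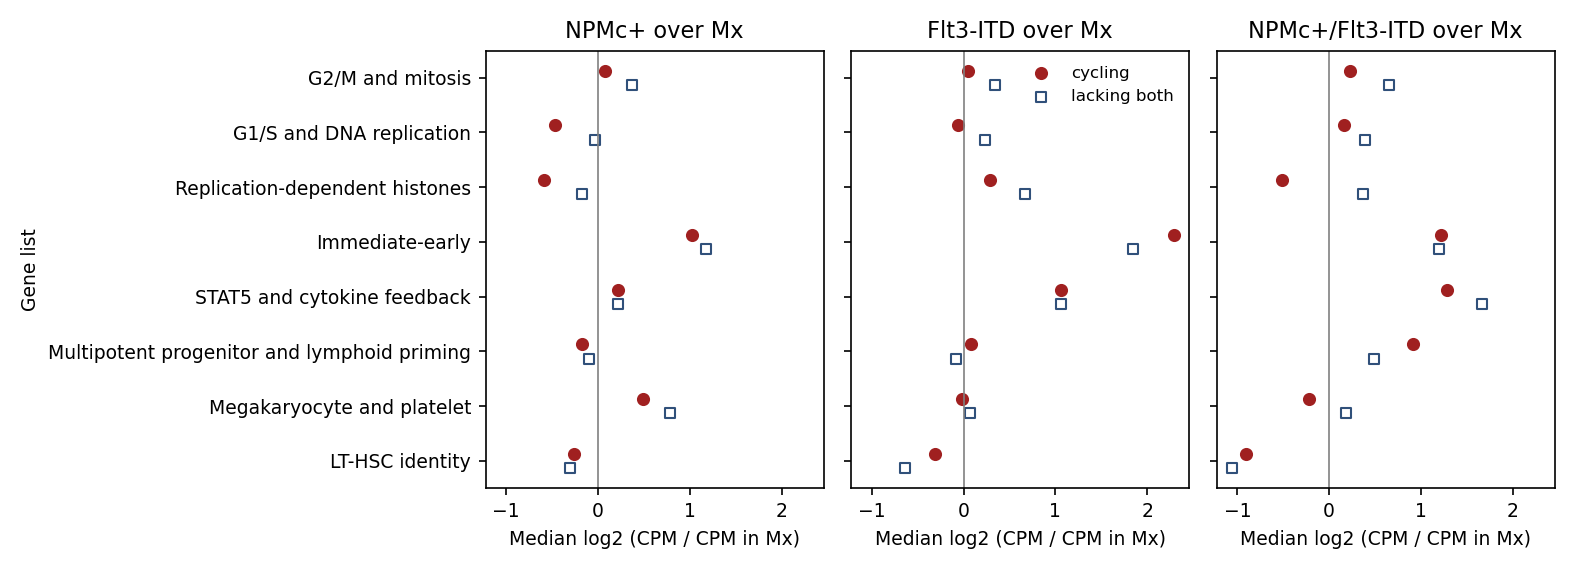
Median log2 ratio over Mx (horizontal axis) of 8 gene lists in cycling cells and in cells lacking Mki67 and Top2a, in 3 panels for NPMc+, Flt3-ITD and NPMc+/Flt3-ITD. The immediate-early list reaches 2.29 in Flt3-ITD cycling cells, and the G2/M list stays at 0.08, 0.05 and 0.23 in cycling cells against 0.37, 0.35 and 0.65 in the others.

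NPMc+/Flt3-ITD cycling cells differed from Mx by genes of several lineages. Ctsg had 273 CPM against 1.48 in Mx (184-fold, 32.7 to 7299) and the T cell receptor gamma constant gene Tcrg-C1 266 against 1.48 (180-fold, 32.0 to 7128). The wide intervals of both come from 1 UMI in Mx. Tcrg-C2 had 126 against 0, a ratio of 28.4 with the zero set to 3 counts, and 10 cells held 69.5% of its UMIs. Igfbp7, a secreted growth factor binding protein, had 259.9 CPM against 2.96 (87.7-fold, 24.02 to 728) and Akr1c12, an aldo-keto reductase, 294 against 4.44 (66.2-fold, 22.4 to 323). Akr1c12 stood at 4.65 CPM in NPMc+ and 9.90 CPM in Flt3-ITD cycling cells. Tcf7 had 119 CPM against 4.44 (26.7-fold, 8.91 to 131). The log2 ratios in cells lacking both were 8.37 for Ctsg, 6.88 for Tcrg-C1, 9.49 for Igfbp7, 6.11 for Akr1c12 and 6.73 for Tcf7, so these genes also separated the cells lacking both. The multipotent progenitor and lymphoid priming list had a median of 0.91 over Mx, against 0.49 in cells lacking both. Of its genes 7 of 16 were higher, against 6.34% of all genes.

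Lower in the double mutant than in Mx were stem cell genes by their median ratio, and lower than in NPMc+ were platelet genes. The LT-HSC list had a median of -0.91 over Mx, against -1.06 in cells lacking both, while NPMc+ and Flt3-ITD stood at -0.26 and -0.31. In the double mutant 9 of 20 genes were lower, against 6.29% of all genes. Summed over its 50 genes the list was not lower in cycling cells, at 5246 CPM against 5176 in Mx. In cells lacking both it was 6944 against 8048 CPM. Mmrn1, a platelet granule protein also high in LT-HSCs, had 1.07 CPM in double mutant cycling cells against 53.3 in Mx (49.9-fold lower, 8.40 to 2024, on 1 UMI). Over NPMc+, 11 of 18 megakaryocyte and platelet genes were lower in the double mutant, against 5.65% of all genes. The median of this list was -1.11 over NPMc+, while it stood at -0.22 over Mx and -0.20 over Flt3-ITD. Pf4 had 53.5 CPM in NPMc+/Flt3-ITD against 1140 in NPMc+ (21.3-fold lower, 16.1 to 28.9), and apolipoprotein E (Apoe) 150 against 1775 (11.9-fold, 9.98 to 14.2). Several of the lowest genes over Mx were ribosomal retrocopies such as Rpl37rt, with 10.7 CPM against 384, and Rps25-ps1, with 3.21 against 144, whose reads can belong to their parent genes, so they are uncertain.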

How the data were processed

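The deposited files held raw UMI counts per gene and barcode, 11407 barcodes in all, which the authors had made, per the submitters' processing notes, by aligning to mm10 and counting with STARsolo (STAR 2.7.0c). Kept barcodes had 1000 or more UMIs, 500 or more genes and no more than 10% mitochondrial UMIs, leaving 25070675 UMIs in NPMc+, 21982925 in Flt3-ITD, 26965367 in NPMc+/Flt3-ITD and 20943905 in Mx. Doublets were not called. Each cell was thinned without replacement to 5000 UMIs, shallower cells being left out, and UMIs were summed per library and class and divided by their total (CPM). Thinning left 215, 202, 187 and 135 cycling cells and 1282, 1343, 1659 and 1425 cells lacking both. A gene entered with at least 50 CPM in either class and was counted from 2-fold. A zero was set to a floor of 3 counts. Intervals are exact (Clopper-Pearson for shares, conditional binomial for ratios), and UMIs of 1 library are not independent animals.

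With 1 library per genotype, count models such as edgeR were not used for testing. edgeR 4.0.16 supplied TMM factors as an alternative, with Python 3.11.15, numpy 2.4.6, scipy 1.17.1, pandas 2.3.3 and matplotlib 3.10.9 for the rest. The calculations were tested on simulated data. The members, gene lists and markers were chosen with earlier results of these data known. Of 1069 list names 1050 matched, and of 26687 gene symbols 25415 (95.2%) were in GENCODE M21. Named genes were those with the largest ratios within all libraries and between libraries, those whose ratio differed most from Mx, the 3 furthest members of each list, and a fixed set of cell cycle, stem cell and feedback genes. The ranking left out sex-linked and mitochondrial genes, names of clones or predictions, and antigen receptor segments. The T cell receptor constant genes Tcrg-C1 and Tcrg-C2 stayed in because their symbols differ from the segment names that were removed.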

Additional observations from a re-analysis of the deposited data

How the results depend on the processing

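No paired analysis was possible because each genotype was 1 library, and for the same reason no replicate could be left out. Counts below are genes at least 2-fold higher and lower, shares are percentages of cells in the order NPMc+, Flt3-ITD, NPMc+/Flt3-ITD and Mx, and a setting's other values stayed within 1.5 times the reported count, or within the interval of the reported share. Without thinning the cycling shares were 9.22, 8.61, 5.99 and 5.64, and 63 genes were lower in NPMc+ and 44 in Flt3-ITD than in Mx. Thinned to 3000 UMIs the shares were 2.53, 2.16, 2.11 and 1.95, 74 genes were lower in NPMc+/Flt3-ITD cycling cells than in those lacking both, and 101 were higher in NPMc+ than in Mx. With at least 2 UMIs of both genes the shares were 1.41, 1.14, 1.06 and 1.52, genes lower in cycling cells numbered 152, 115, 109 and 189, NPMc+ over Mx had 104 higher and 155 lower, and NPMc+/Flt3-ITD had 371 higher over NPMc+ and 305 higher over Flt3-ITD. The shares above the G2/M line were then 80.2, 69.3, 70.1 and 65.4.

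Without cells of other lineages, which left 14 NPMc+/Flt3-ITD cycling cells, the cycling shares were 3.41, 3.08, 1.93 and 2.65. Within libraries 164 genes were lower in NPMc+, 121 in Flt3-ITD, and 565 were higher and 416 lower in NPMc+/Flt3-ITD. Over Mx, NPMc+ had 189 higher and 272 lower, Flt3-ITD 145 and 178, and NPMc+/Flt3-ITD 800 and 446, and the double mutant had 878 and 453 over NPMc+ and 840 and 401 over Flt3-ITD. The share above the G2/M line was 78.6 in NPMc+ and 64.3 in NPMc+/Flt3-ITD. In male cells only, 98 genes were lower in Flt3-ITD cycling cells, NPMc+ over Mx had 110 higher and 177 lower, Flt3-ITD over Mx 143 and 168, and NPMc+/Flt3-ITD had 290 higher over Flt3-ITD. Without the tenth of cells with most UMIs the cycling shares were 2.45, 3.04, 2.25 and 1.63, NPMc+ over Mx had 191 higher and 260 lower, Flt3-ITD over Mx 195 and 257, and NPMc+/Flt3-ITD had 444 higher over Mx and 328 over Flt3-ITD. With cycling cells chosen on thinned counts, 65 genes were lower in NPMc+/Flt3-ITD cycling cells, NPMc+ over Mx had 135 higher and 165 lower, Flt3-ITD over Mx 142 lower, and NPMc+/Flt3-ITD had 372 higher over NPMc+ and 342 over Flt3-ITD. These settings also leave fewer cells, and the cause of each shift was not tested.

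At a floor of 20 CPM the counts within libraries were 353 and 248, 395 and 206, 360 and 143, and 467 and 381, and between libraries 202 and 337 for NPMc+ over Mx, 207 and 283 for Flt3-ITD over Mx, 544 and 470 for NPMc+/Flt3-ITD over Mx, 579 and 363 over NPMc+ and 516 and 353 over Flt3-ITD. At 100 CPM they were 112 and 49, 116 and 27, 112 and 14, and 137 and 47 within libraries, 38 and 38 for NPMc+ over Mx, 57 and 30 for Flt3-ITD over Mx, 120 and 163 for NPMc+/Flt3-ITD over Mx, and 105 higher over NPMc+ and 80 over Flt3-ITD. With TMM scaling 64 genes were lower in NPMc+ than in Mx and 107 higher in NPMc+/Flt3-ITD than in Flt3-ITD. With mitochondrial and ribosomal protein genes left out of the total, 156, 108, 57 and 214 genes were lower within libraries, and 160 in NPMc+, 116 in Flt3-ITD and 372 in the double mutant were lower than in Mx. With at least 2 markers in place of 3, the shares of cycling cells with erythroid markers were 24.7, 12.9, 8.02 and 14.1, megakaryocyte 70.2, 29.2, 17.1 and 43.0, T or NK 47.0, 38.1, 86.1 and 26.7, and neutrophil 27.4, 32.7, 42.8 and 14.8. Another random seed and a stricter barcode filter moved none of these counts or shares that far. Of the single gene values under all settings, 2117 moved by less than counting error, 279 by more and 4 changed sign. Without cells of other lineages Mpo in NPMc+ over Mx had a log2 ratio of -0.052 and Rpl36-ps2 in NPMc+/Flt3-ITD over Flt3-ITD 0.36, and without the tenth of cells with most UMIs Ctsg and Mpo in NPMc+ over Mx stood at -0.36 each, the granule genes resting on few cells.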
